A study of Gallus gallus with 3 samples.

Results

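The cyclin, cyclin-dependent kinase (CDK) and E2F genes were examined in 3 RNA-seq libraries of chicken DT40-ASF cells. They were taken by symbol: genes of the count table named CDK plus a digit, CDKN, CDKL, CCN plus a letter from A to L, or E2F plus a digit, with at least 30 counts summed over the libraries. Of 11877 genes listed, 59 had such a name and 56 reached the minimum. The rule uses names and summed counts, not differences between libraries. Just above the minimum were CCNA1, with 84 counts in all, and CDK18, with 93. Below it were CDK3 with 13 counts, CCNJL with 7 and CDKN1A with 6. All 56 genes passed the filter on low counts that left 10203 genes for testing.

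DT40 is a chicken B lymphocyte line used for gene targeting because it recombines introduced DNA efficiently. The labels give all 3 libraries as reconstituted cells of the DT40-ASF line; from general knowledge of this line, its own SRSF1 gene is inactivated and a human ASF copy keeps the cells alive. The 1 control library came from untransfected cells. The other 2 libraries came from cells with a knock-in of SRSF1-3, a splice isoform of the splicing factor SRSF1, and each was 1 clone: clone 41 and clone 47. Since each knock-in culture was also a transfected and cloned one, transfection, cloning and the knock-in cannot be told apart. No drug treatment is labelled.

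Most CDKs phosphorylate their targets only when bound to a cyclin. Successive cyclins carry the cell from G1 (D cyclins) through replication start (E cyclins) and S phase (A cyclins) into mitosis (B cyclins with CDK1). CDK inhibitors of the CDKN family hold these kinases back. E2F factors switch on genes for DNA replication once D and E cyclin kinases have released them from the retinoblastoma proteins. Other members of the same families serve transcription: CDK7, CDK8, CDK9, CDK12 and CDK13 act on RNA polymerase II or its Mediator complex. CDK7 also switches on other CDKs. DT40 cells, like other lymphoma lines, divide rapidly and show a high level of MYC.

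Total counts lay between 41760372 (clone 47) and 44868987 (control), and the genes examined held 0.452% of counts in the control (exact binomial 95% interval 0.450 to 0.454), 0.418% in clone 41 (0.416 to 0.420) and 0.572% in clone 47 (0.569 to 0.574). Intervals here and below reflect counting alone and not the spread between cultures. They treat each read as a separate molecule, so reads copied by PCR would make them too narrow. Where a pair of relative levels is given without naming the clones, clone 41 comes first. With 1 library per clone and 1 control, no value of a single library has a replicate. SRSF1 itself, counted at gene level, had a relative level (its CPM, read counts per library size after TMM scaling, divided by the CPM of the control) of 1.58 in clone 41 and of 4.16 in clone 47. All 12 B cell markers examined were detected in every library, and their summed level was 987 CPM in the control against 856 in clone 41 and 562 in clone 47. Summed markers of T cells (7 of 7 listed, 17.7 to 34.5 CPM), of myeloid cells (5 of 6, 111 to 191 CPM, nearly all CEBPB and SPI1) and of fibroblasts and epithelia (5 of 6, 17.1 to 29.7 CPM) were lower. CD8A held the largest part of the T cell sum, with 1011, 359 and 920 counts (control first, then clones 41 and 47). COL1A2 made up most of the fibroblast and epithelial sum, with 893, 1181 and 673 counts in that order. By contrast, CD4, CSF1R and COL3A1 had 0 or 1 count in each library. Erythroid markers were not analysed here. The part of these marker differences in the results below was not tested, and in bulk RNA the share of cells in a given phase and the RNA per cell cannot be told apart.

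By level per transcript length, CDKN2A, CDK1 and CCNB3 stood at the top of the families in the control. In the control, the deposited FPKM (fragments relative to transcript length and sequencing depth) was 252 for CDKN2A, 173 for CDK1, 105 for CCNB3, 102 for CCNI and 75.6 for CCNA2, the highest 5 of the 56 genes. CDKN2A and CDK1 were first and second in all 3 libraries. CDKN2A reached its FPKM with only 2088 counts in the control, against 10759 for CDK1, so its rank rests on the transcript length used for scaling. At the other end, CCNA1, CDKL2 and CDK18 had FPKM values of 0.224, 0.248 and 0.364 in the control. Symbols searched for and not analysed here, since the count table holds no row of that name, were CDK2, CDK4, CCNB1 and CDKN1C. The gene that the files call CCNB2 appears as a synonym of CCNB1 in RefSeq (assembly GRCg7b), so its name is uncertain.

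**Figure D1:**
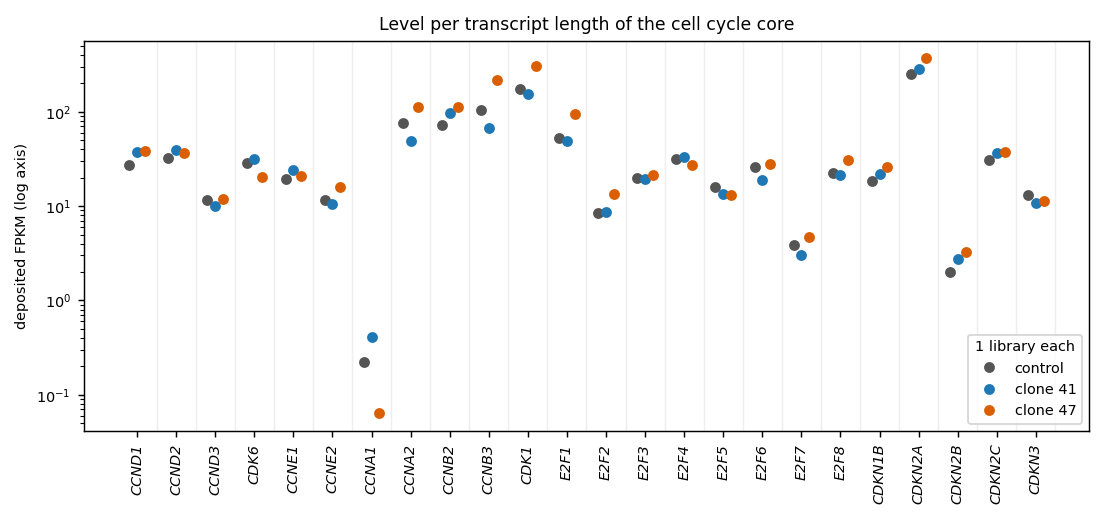
Deposited FPKM on a log axis for 24 genes of the cell cycle core, with 1 point for each library (control grey, clone 41 blue, clone 47 orange) and no error bars because each point is 1 library. CDK1, CCNB3, CCNA2 and E2F1 have their highest point in clone 47, while CCND1 has both clones above the control.

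Knock-in against control asked whether the clones as a group differed from the untransfected cells. None of the 56 genes did so by edgeR's quasi-likelihood test with Benjamini-Hochberg adjustment over all tested genes: 0 had an adjusted p below 0.05, each adjusted p being 1, and 0 had an unadjusted p below 0.05. Over all 10203 genes the same test called 0 (0%), and 81 (0.794%) had an unadjusted p below 0.05. DESeq2, limma-voom and the legacy form of the edgeR test also called 0 of these genes. Limma on FPKM called 0 of the 53 that it tested, which left out CCNA1, CDKL2 and CDK18 for low FPKM. This test has 1 residual degree of freedom and takes the spread of the control, a single library, from that between the clones. It also shares the spread across all tested genes, so the SE of a gene does not measure its own clone difference alone. The smallest unadjusted p among the 56 was 0.136, for the CDK inhibitor gene CDKN2B.

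By size alone, most of the genes lay near the control in both clones. In clone 41, 1 of 56 was at least 2-fold from the control, where 8.75% of all tested genes were. This gene, CDKL2, was lower, as were 5.55% of all tested genes, and no member was higher, where 3.20% of all tested genes were. In clone 47 there were 6 (10.7%), where 17.0% of all tested genes were. Higher were CCNB3, CDKN2B and CDKL2, 3 of 56 against 9.42% of all tested genes, and lower were CDK19, CDK15 and CCNA1, 3 of 56 against 7.57%. None was at least 2-fold from the control in the same direction in both clones, against 2.84% of all tested genes. The median log2 ratio was -0.04 in clone 41 and 0.09 in clone 47, beside 0.00 for all tested genes in each. Without regard to sign, the median log2 ratio in clone 41 was 0.24 for members and 0.23 for all tested genes. In clone 47 it was 0.37 and 0.41, so in clone 41 the typical member lay no nearer to the control than the typical tested gene. The background shares were lower among genes with a mean of at least 5 CPM, which were 51 members and 7912 tested genes. Clone 41 then had 0 members past 2-fold, beside 1.78% of these tested genes. Clone 47 had 3 of 51, beside 8.53%. For both clones in the same direction there were 0, beside 0.392%. Over the same genes, the SD of the log2 ratio in clone 47 was 0.44 for members and 0.61 for tested genes. For clone 41 it was 0.32 and 0.37.

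**Figure D2:**
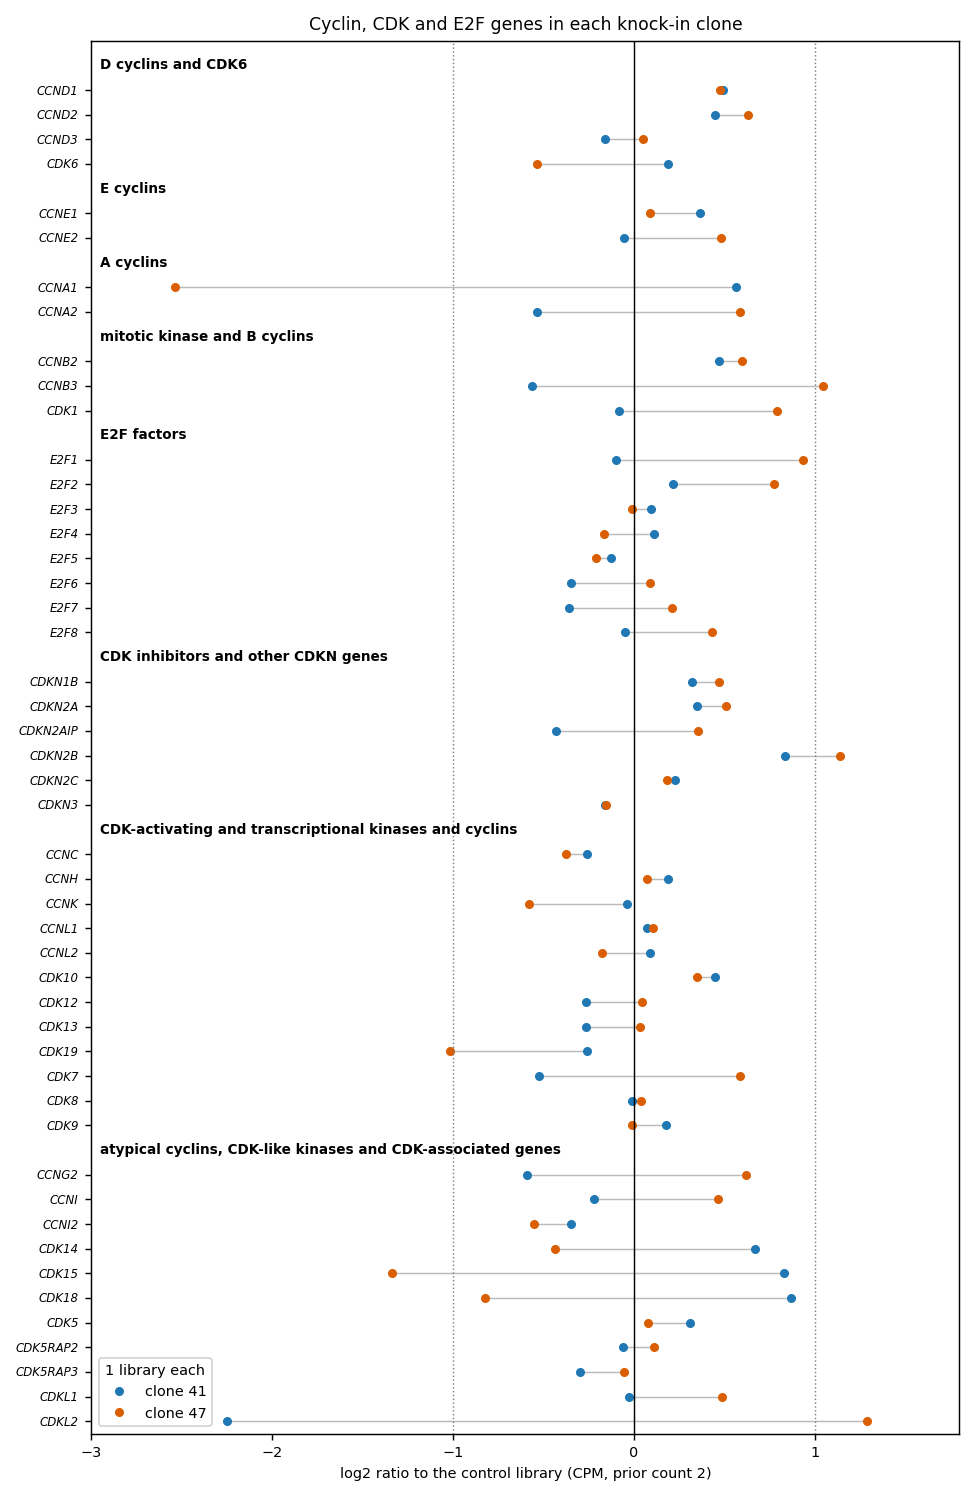
Log2 ratio of CPM to the control library (prior count 2) for 48 of the 56 genes, ordered by role, with clone 41 in blue and clone 47 in orange, 1 library each; dotted lines mark 2-fold. Points of clone 41 stay within 2-fold except for CDKL2, and 6 points of clone 47 lie outside it.

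Among the cyclins that open the cycle, CCND1 and CCND2 were higher in both clones and CCND3 was near the control. CCND1, a D cyclin gene, had 2930 counts in the control against 3705 in clone 41 and 3940 in clone 47. The relative level was 1.41 in clone 41 (interval 1.34 to 1.48) and 1.39 in clone 47 (1.32 to 1.46). The clones lay close together and above the control, yet the fitted log2 difference of 0.49 (SE 0.44) did not pass edgeR's test (adjusted p = 1). CCND2, a D cyclin expressed in B lymphocytes of mammals, had 2712, 3322 and 4058 counts in the same order, giving relative levels of 1.37 and 1.55. By FPKM the relative level of CCND2 in clone 47 was smaller, at 1.13. CCND3 had a relative level of 0.896 in clone 41 and of 1.04 in clone 47. Its share of the summed D cyclin FPKM was 16.4% in the control against 11.6% in clone 41 and 13.8% in clone 47.

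CDK6, the D cyclin partner measured here, had 2089 counts in the control against 2133 in clone 41 and 1392 in clone 47. It had a relative level of 1.14 in clone 41 and of 0.689 in clone 47 (interval 0.643 to 0.737), so the control lay between the clones. The E cyclins, which drive entry into S phase, differed between clones in opposite ways. CCNE1 had relative levels of 1.29 and 1.06, and CCNE2 of 0.962 and 1.40. CCNE1 accordingly made up 69.3% of the E cyclin FPKM in clone 41 and 56.4% in clone 47, with 62.6% in the control.

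CDK1, CCNA2 and both B cyclin genes had their highest level in clone 47. CDK1, the kinase that starts mitosis, had 10759 counts in the control against 9121 in clone 41 and 18009 in clone 47. It had a relative level of 0.945 in clone 41 (interval 0.919 to 0.972) and of 1.73 in clone 47 (1.69 to 1.77). CCNA2, the A cyclin of dividing somatic cells, had 7172, 4434 and 10428 counts, a relative level of 0.689 in clone 41 and 1.50 in clone 47. Both genes thus had the control between the clones. CCNB3, a nuclear B cyclin, had 7978 counts in the control against 4842 in clone 41 and 15962 in clone 47. Its relative level was 0.677 in clone 41 (interval 0.653 to 0.701) and 2.07 in clone 47 (2.01 to 2.12), which left the clones 3.06-fold apart. The knock-in libraries therefore stood on opposite sides of the control for this gene, and its fitted log2 difference was 0.46 (SE 0.51, edgeR adjusted p = 1).

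CCNB2, the other B cyclin gene, did not share that pattern. Its 9288 counts in the control against 11560 in clone 41 and 13624 in clone 47 gave relative levels of 1.39 and 1.52, above the control in both clones. Its fitted log2 difference was 0.54 (SE 0.44, edgeR adjusted p = 1). CCNB3 held 59.1% of the B cyclin FPKM in the control against 41.2% in clone 41 and 66.0% in clone 47, so CCNB2 was the more abundant of the pair per length in clone 41 alone. CCNA1, an A cyclin used mainly in the male germ line of mammals, was barely expressed, with 34 counts in the control against 46 in clone 41 and 4 in clone 47. Its ratio of 0.122 in clone 47 had a wide counting interval (0.0313 to 0.341), and by FPKM it was 0.285.

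E2F1 stood out among the 8 E2F genes. This activating factor, the best known E2F, had 6758 counts in the control against 5655 in clone 41 and 12517 in clone 47. It had a relative level of 0.933 in clone 41 (interval 0.900 to 0.966) and of 1.91 in clone 47 (1.86 to 1.97). The fitted log2 difference was 0.51 (SE 0.46) and did not pass edgeR's test (adjusted p = 1). E2F2, also an activator, had 696, 727 and 1154 counts, giving relative levels of 1.16 and 1.71. E2F3, the remaining activator, had relative levels of 1.07 and 0.994. E2F1 made up 65.2% of the FPKM of the activating E2Fs in the control against 63.4% in clone 41 and 73.3% in clone 47.

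The repressive E2Fs lay nearer to the control in clone 47 than E2F1 and E2F2. E2F4 and E2F5, which act with the retinoblastoma relatives RBL1 and RBL2 in resting cells, had relative levels of 1.08 and 0.915 in clone 41 and of 0.892 and 0.864 in clone 47. E2F6, a repressor that works without retinoblastoma proteins, had a relative level of 0.786 in clone 41 and of 1.07 in clone 47. The atypical repressors E2F7 and E2F8, which bind DNA without a DP partner, had relative levels of 0.779 and 0.966 in clone 41 and of 1.16 and 1.35 in clone 47. All 8 E2F genes were within 2-fold of the control in both clones, and the median log2 ratio over them was -0.08 in clone 41 and 0.15 in clone 47.

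Of the 6 tested CDKN genes, 4 lay above the control in both clones, where 25.9% of all tested genes did, and the exceptions were CDKN3 and CDKN2AIP. CDKN2B, which encodes an INK4 inhibitor of D cyclin kinases, had 517 counts in the control against 828 in clone 41 and 1103 in clone 47. It had a relative level of 1.79 in clone 41 (interval 1.60 to 2.00) and of 2.21 in clone 47 (1.98 to 2.45). Its fitted log2 difference of 1.00 (SE 0.65, edgeR adjusted p = 1) did not pass. By FPKM the same ratios were 1.40 and 1.63, under 2-fold in both clones. CDKN2A, its neighbour on the chromosome and known in chicken for the ARF product, had 2088, 2390 and 2874 counts, giving relative levels of 1.28 and 1.42. In the RefSeq table the symbol CDKN2A is also a synonym of CDKN2B, so reads may be assigned under either name. CDKN1B, encoding an inhibitor of E and A cyclin kinases, had relative levels of 1.25 and 1.39. CDKN2C, another INK4 gene, had relative levels of 1.17 and 1.14.

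CDKN3, which encodes a phosphatase that acts on CDKs, had relative levels of 0.896 and 0.899. CDKN2AIP, a gene for an ARF-binding protein, had the control between the clones, at relative levels of 0.741 and 1.28. CDKN1A, the inhibitor gene that the p53 protein switches on after DNA damage in mammals, was almost silent. It had 4 counts in the control against 2 in clone 41 and 0 in clone 47, where a count of 0 allows up to 0.0688 CPM (3 counts).

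Of the 12 kinases and cyclins of CDK activation and transcription, CDK19 was the 1 gene at least 2-fold from the control in either clone, and the others lay between 0.668 and 1.50. CDK19, a Mediator kinase, had 1940 counts in the control against 1456 in clone 41 and 927 in clone 47, giving relative levels of 0.837 (interval 0.781 to 0.896) and 0.494 (0.456 to 0.534). Both clones lay below the control, and the fitted log2 difference was -0.59 (SE 0.54, edgeR adjusted p = 1). Total-count scaling in place of TMM put clone 47 just inside 2-fold, with a log2 ratio of -0.96. CDK8, the sister kinase in the same complex, had relative levels of 0.991 and 1.03. As a share of the summed FPKM of both kinases, CDK8 made up 20.3% in the control, while it was 23.2% in clone 41 and 37.3% in clone 47. Their cyclin CCNC had relative levels of 0.836 and 0.770. MED12 and MED13, which belong to the same kinase module of Mediator and are named here after their values were seen, had relative levels of 0.826 and 0.993 in clone 41 and of 0.842 and 1.53 in clone 47.

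The trimeric CDK-activating kinase, which switches on other CDKs and also serves in transcription factor TFIIH, was uneven across its subunits in both clones. CDK7 had 1595 counts in the control against 995 in clone 41 and 2322 in clone 47, giving relative levels of 0.695 and 1.50. Its cyclin CCNH had relative levels of 1.14 and 1.05. The assembly factor MNAT1, named after its values were seen, had relative levels of 1.10 and 0.616. In clone 41 the kinase was thus below the control, with the cyclin and the assembly factor above it. In clone 47 the kinase was above the control, the cyclin near it and the assembly factor below it.

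CDK9, the elongation kinase, had relative levels of 1.13 and 0.995. Its cyclins CCNT1 and CCNT2, also named after their values were seen, had relative levels of 1.24 and 1.15 in clone 41 and of 1.31 and 0.777 in clone 47. CDK12 and CDK13, kinases of the polymerase tail, gave nearly the same ratios as each other, at 0.831 and 0.833 in clone 41 and 1.03 and 1.02 in clone 47. Their cyclin CCNK had a relative level of 0.973 in clone 41 and of 0.668 in clone 47. CCNL1 and CCNL2, cyclins found with splicing factors, lay at relative levels of 0.886 to 1.08 in both clones, and CDK10 had relative levels of 1.37 and 1.27. Over the 12 genes of activation and transcription the median log2 ratio was -0.03 in clone 41 and 0.03 in clone 47.

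The remaining 19 genes are atypical cyclins, CDK-like kinases and CDK-associated genes. Over these 19 genes the median log2 ratio was -0.04 in clone 41 and 0.08 in clone 47. Among the well expressed ones, CCNG2, an atypical cyclin linked to cell cycle arrest in mammals, had 7693 counts in the control against 4578 in clone 41 and 11437 in clone 47. It had relative levels of 0.663 and 1.54, the same order of libraries as for CCNA2, CCNB3 and CDK7. CDK14, a kinase partnered by cyclin Y, went the other way, with 3216, 4594 and 2302 counts, giving relative levels of 1.59 and 0.740. CCNY, its cyclin, had a relative level of 1.72 in clone 41 and of 1.16 in clone 47. CCNG2 and CDK14 were named here after their values were seen.

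CDKL2 and CDK15, the 2 genes of this group at least 2-fold from the control in a clone, were weakly expressed, as was CDK18. CDKL2 had 114 counts in the control against 20 in clone 41 and 272 in clone 47, giving relative levels of 0.196 (interval 0.115 to 0.316) and 2.47 (1.97 to 3.10). By FPKM the relative level in clone 41 was 0.392, so the size of this difference depended on the deposited measure. CDK15 had 134, 215 and 50 counts, giving relative levels of 1.79 and 0.386. CDK18 had 29, 49 and 15 counts, giving relative levels of 1.88 and 0.535, with a counting interval in clone 47 of 0.266 to 1.03 that includes the control level. CCNI2, an atypical cyclin gene, had relative levels of 0.784 and 0.681. CDK5, a kinase best known from neurons, had relative levels of 1.24 and 1.05, and CDKL1, a CDK-like kinase gene, of 0.981 and 1.41. CDK5RAP2, which organises centrosomes, had relative levels of 0.961 and 1.08, and CCNI, the fourth most abundant gene per length in each library, of 0.858 and 1.38.

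Clone 41 against clone 47 set the 2 knock-in libraries side by side, without a test. At least 2-fold apart were 10 of the 56 genes (17.9%), where 20.8% of all tested genes were. Higher in clone 47 were CDKL2 (12.6-fold), CCNB3 (3.06-fold), CCNG2 (2.32-fold), CCNA2 (2.18-fold), CDK7 (2.16-fold) and E2F1 (2.05-fold), 6 of 56 where 12.2% of all tested genes were. Higher in clone 41 were CCNA1 (12.4-fold), CDK15 (4.64-fold), CDK18 (3.52-fold) and CDK14 (2.15-fold), 4 of 56 where 8.67% were. The fold of CCNA1 rests on 4 counts in clone 47 (interval 4.53 to 47.4) and was 6.49 by FPKM. That of CDKL2 rests on 20 counts in clone 41 (interval 8.01 to 21) and was 7.17 by FPKM. With total-count scaling the split was 8 higher in clone 47 and 3 higher in clone 41, instead of 6 and 4, with CDK1 among those that passed 2-fold and CDK14 no longer past it. At a mean of at least 5 CPM (TMM scaling), 6 of 51 members were 2-fold apart, where 11.8% of tested genes were. Of these members, 5 were higher in clone 47 (5.73% of tested genes) and 1 in clone 41 (6.12%).

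Relative to the control, 22 of the 56 genes (39.3%) were below it in clone 41 and above it in clone 47, a pattern shown by 24.2% of all tested genes. The reverse pattern was shown by 11 genes (19.6%), where 23.9% of all tested genes had it. Both clones were above the control for 14 genes, where 25.9% of all tested genes were, and below it for 9 (16.1%), where again 25.9% were. These counts rest on the same control library, and genes with ratios close to 1 enter them on small differences. Total-count scaling turned the sign of 1 gene in clone 41 (CCNL1) and of 3 in clone 47 (CDK9, E2F3 and CDK5RAP3).

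**Figure D3:**
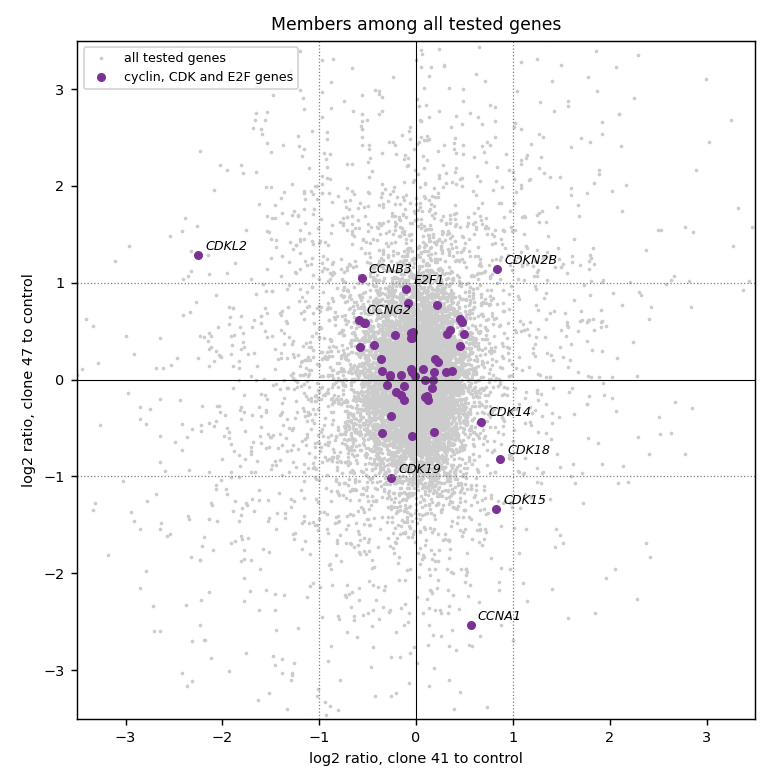
Log2 ratio to the control in clone 41 (horizontal) against clone 47 (vertical), with all tested genes in grey and the 56 cyclin, CDK and E2F genes in purple; both axes share the 1 control library, dotted lines mark 2-fold, and 76 grey genes beyond 3.5 in size on either axis are not drawn. Most purple points lie inside the 2-fold square, with CDKL2, CCNA1, CDK15, CCNB3, CDKN2B and CDK19 outside it.

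Other genes of the pathway were read from 2 lists. Of 37 regulators and partners listed, 30 were tested, and 0 passed edgeR's test (0 at an unadjusted p below 0.05, and 0 by DESeq2 and limma-voom). The retinoblastoma genes RB1, RBL1 and RBL2, which bind and silence E2Fs, had relative levels of 1.09, 0.873 and 1.04 in clone 41 and of 1.37, 1.03 and 1.32 in clone 47. TFDP1, the E2F dimer partner, had relative levels of 0.994 and 0.946. MYC, a driver of growth that is abundant in this line, had 108797 counts in the control against 129658 in clone 41 and 94650 in clone 47, giving relative levels of 1.33 and 0.899.

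The largest differences in this list were in clone 47 except for CCNY. CKS1B, a small subunit that binds CDKs, had a relative level of 0.855 in clone 41 and of 1.88 in clone 47, the order of libraries seen for CDK1. CABLES1 and CABLES2, CDK-binding adaptor genes, had relative levels of 1.14 and 0.834 in clone 41 and of 0.506 and 0.583 in clone 47. LIN52 and LIN54, subunits of the complex that joins E2F4 or MYBL2 on cell cycle promoters, had relative levels of 1.06 and 0.699 in clone 41 and of 0.544 and 0.612 in clone 47. The median log2 ratio over the 30 genes was 0.03 in clone 41 and -0.10 in clone 47, and total-count scaling turned the median of clone 41 to -0.05.

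The second list held 20 genes that E2F factors are known to activate, of which 19 were tested and 0 passed edgeR's test (0 at an unadjusted p below 0.05, and 0 by DESeq2 and limma-voom). These were mostly genes of DNA replication and nucleotide synthesis, with no cyclin, CDK or E2F gene among them. The list is thus only a part of the genes that E2F factors activate. In clone 47, where E2F1 had a relative level of 1.91, 12 of the 19 were lower than the control and 7 higher, with a median log2 ratio of -0.46. Of all 10203 tested genes, 5085 were lower and 5115 higher in that clone, with a median of 0.00. CDC6, which loads the replicative helicase, had 1558 counts in the control against 1807 in clone 41 and 667 in clone 47, giving relative levels of 1.29 and 0.443. The helicase subunit genes MCM6 and MCM5 had relative levels of 1.15 and 1.14 in clone 41 and of 0.467 and 0.496 in clone 47. These 3 of the 19 genes were at least 2-fold lower in clone 47, where 7.57% of all tested genes were. Among tested genes with a mean of at least 5 CPM, a level that all 19 reached, the share was 4.42%. At the upper end in clone 47 were the nucleotide synthesis genes TK1, with relative levels of 1.04 and 1.71, and RRM1, with 1.04 and 1.33. In clone 41 the median was 0.06, turning to -0.02 with total-count scaling.

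**Figure D4:**
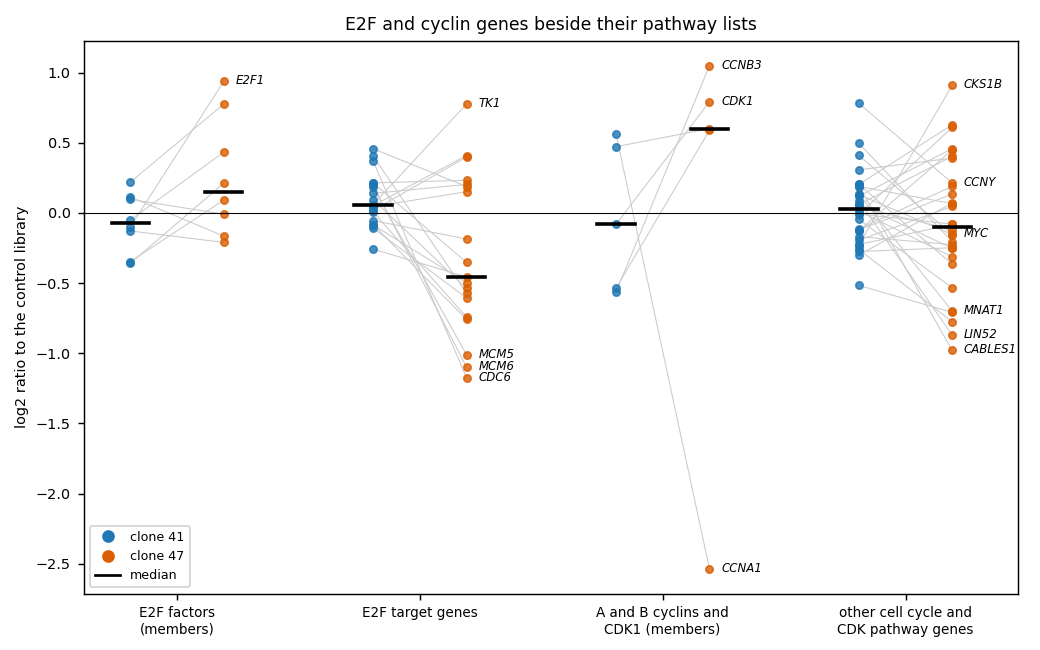
Log2 ratio to the control library for the 8 E2F genes, 19 E2F target genes, the 5 A and B cyclin and CDK1 genes, and 30 other pathway genes, with clone 41 in blue and clone 47 in orange, a grey line joining each gene and a black bar at the median. In clone 47 E2F1 and CDK1 are above the control while CDC6, MCM6 and MCM5 are below it.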

How the data were processed

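Strand-specific libraries of enriched mRNA, 1 control and 2 knock-in, were read from both ends, per the labels' protocols. The chicken build galGal4 and the tools Bowtie, Cuffdiff, Cufflinks 2.2.1, TopHat and TopHat2 are named in the submitters' processing notes. The sources used here name no counting tool, annotation or strand setting, so overlapping and antisense genes may share reads. The deposited counts are whole read counts per gene, and the deposited FPKM values are the normalised counts of the authors' cover sheet. From the counts, filterByExpr (minimum count 10, minimum total 15), TMM and the quasi-likelihood F test (legacy = FALSE) of edgeR 4.0.16 were run on all genes, adjusted by Benjamini-Hochberg at 0.05, and tested on simulated data. SEs were derived from the F statistic. Sizes used log2 CPM with a prior count of 2; ratios of libraries have exact conditional binomial 95% intervals. Alternatives used DESeq2 1.42.0, limma 3.58.1, other scalings, no filter and FPKM. The labels name no separate cultures of a clone, so p-values rest only on the spread between these libraries, shared across genes by the fit. Members, lists and the naming rule (members at least 2-fold from the control in either clone, the cell cycle core, the 3 highest by FPKM, set pathway genes and the extremes of each list) were chosen with earlier results of these data known; other genes are named as described after their values were seen. List symbols were matched directly or through RefSeq synonyms (GRCg7b). The values of 1 member are not reported here singly, and it stays in the counts and medians.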

Additional observations from a re-analysis of the deposited data

How the results depend on the processing

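No call among the cyclin, CDK and E2F genes or the pathway lists was made under any of the 7 other fits. Over all genes, where edgeR called 0, the legacy estimator and DESeq2 each called 2, limma-voom 1 and limma on log2(FPKM + 1) 12, none of them a cyclin, CDK or E2F gene; the cause was not tested. On FPKM with a pseudocount of 1, the genes at least 2-fold from the control numbered 0 in clone 41 and 2 in clone 47 (CCNB3 and CDK19), and 5 were 2-fold apart between clones, a setting that changes measure and pseudocount together, and the cause was not tested; with a pseudocount of 0.1 clone 41 again had 0. Leaving out a clone turns the count of genes 2-fold from the control in both clones into that of the clone left, 1 to 6. Fits without a clone have no residual degrees of freedom and gave no test. The medians over members kept their sign in all alternatives. Of 310 single ratios recomputed, 236 stayed within the counting interval, 74 moved beyond it and 0 of those at least 2-fold changed sign. Ratios near the control level changed sign for CDK9 in clone 47, CDK8 in clone 41 and E2F3 in both clones. In some alternatives, the ratios of CDKN2B, CDK15, CCNA1 and CDK19 in clone 47 and of CDKL2 in both clones fell under 2-fold. No paired analysis was possible because the labels give the clones and the control no shared replicate numbers. With 3 libraries, depth did not limit most members, but CCNA1 and CDK18 had 50 counts or fewer in every library. CDK15 had 50 counts in clone 47. CDKL2, the only member past 2-fold in clone 41, had 20 counts there.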

Other observations

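Neighbouring genes gave a further set of values. For each gene given here, the median log2 ratio was taken over 10 tested protein-coding genes nearest to it in the order of the RefSeq table (assembly GRCg7b, whose coordinates were not used otherwise). For CDKN2B in clone 47 this median was 0.49, beside 1.14 for the gene itself, and in clone 41 it was 0.02 beside 0.83. For CDKN2A it was 0.64 in clone 47, beside 0.51 for the gene. CDKN2A and CDKN2B are each among the 10 neighbours of the other, so these medians are not independent of the pair itself. For E2F1 in clone 47 the median of the neighbours was 0.37, beside 0.94, and for CDK1 it was 0.40, beside 0.79. For CCNB3 it was -0.31, beside 1.05, and for CCNG2 it was -0.13, beside 0.62. For CDK19 it was 0.03, beside -1.02. The part of neighbouring genes in these differences was not tested.

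The deposited counts and FPKM values gave ratios within 0.25 of each other on the log2 scale for 53 of 56 genes in each clone. In clone 41 the exceptions were CDKL2, CDKN2B and CCNA1, and in clone 47 they were CCNA1, CCND2 and CDKN2B. The direction was the same by both measures for 54 genes in clone 41 and 53 in clone 47.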
